A study of Mus musculus with 3 samples.

Results

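Voltage-gated sodium channels, voltage-gated calcium channels and hyperpolarization-activated pacemaker channels were examined in adult mouse hearts labelled as Lrrc10-/- or wild type (WT). The members were all non-control probes whose gene name on the array began with Scn and a digit, with Cacna, Cacnb or Cacng, or with Hcn and a digit. This rule took 80 of the 41174 probes on the array, standing for 43 genes among 28631 distinct gene names. A probe was called detected where the scanner software marked it well above background in the Cy5 or the Cy3 channel on each of the 3 arrays, which held for 46 of the 80 channel probes (28 genes) and for 27962 probes of the whole array. All 46 also passed the minimum mean processed signal of 20 used for testing, as did 29606 probes of the whole array. No probe on the array matched the rule for the sodium channel subunit gene Scn4b.

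Each array (replicates 1 to 3) compared RNA pooled from 2 whole hearts of Lrrc10-/- mice, labelled with Cy5, with a Cy3-labelled RNA pool of 2 WT hearts. The mice were 2 months of age on a C57/BL6 background. The knockout was present in every cell of the body, while Lrrc10 itself encodes a leucine-rich repeat protein of cardiomyocytes. The study's methods describe pools of littermate hearts and 3 independent biological replicates, while the labels call the WT side a reference pool. If one WT pool served all 3 arrays, the tests below leave out the spread between WT pools.

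The current that starts each heartbeat enters working cardiomyocytes through sodium channels, which open within a fraction of a millisecond and pass the impulse from cell to cell. Calcium channels of the L type open next, hold the plateau of the action potential and trigger contraction, whereas T-type calcium channels and the Hcn channels, which open on hyperpolarization, serve the automatic firing of pacemaker and conduction cells. In both families a large alpha subunit forms the pore. Smaller subunits (beta for sodium channels, and alpha2delta, beta and gamma for calcium channels) set how many channels reach the membrane and how they gate.

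The deleted gene went against its label. The Lrrc10 probe A_51_P441687 had a processed Cy5 signal of 14283, 20828 and 17703 on replicates 1, 2 and 3, in the channel labelled Lrrc10-/-, and a Cy3 signal of 476.5, 442.6 and 352.3 in the channel labelled WT. Its log2 ratio of Cy5 over Cy3 was 5.37 ± 0.41 (SD, n = 3 arrays; limma, adjusted p = 2.62e-04). The part of the gene that the deletion removed was not compared with this probe. Directions below are therefore given by channel, with positive log2 ratios brighter in Cy5, and every direction between genotypes rests on labels that this probe contradicts. Dyes were not swapped, so a dye effect and a genotype effect cannot be told apart. The 3 arrays came from one slide and one scan, with 28942 to 30810 gene spots well above background per array and channel, and with so few arrays each value is imprecise. In RNA from whole hearts, fewer cells of a type and less RNA per cell cannot be told apart.

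The probes on the array were 60 bases long. Some of those that carried the main results, or that gave different answers for the same gene, are written here. They run 5′ to 3′ as the array lists them. Capitals mark the longest run of bases that each shares with a probe of another gene on the array. Cacna1s A_52_P598219 and Cacng6 A_51_P133428 were brighter in the same channel by at least 1.2-fold on every array. The pair for Cacna1a gave opposite answers on replicates 1 and 2. Probes of Scn3b and of Scn8a also differed within their gene, and their sequences are not printed.
Cacna1s A_52_P598219: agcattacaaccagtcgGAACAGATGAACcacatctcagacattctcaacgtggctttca
Cacng6 A_51_P133428: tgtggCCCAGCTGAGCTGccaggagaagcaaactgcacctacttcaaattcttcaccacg
Cacna1a A_52_P58404: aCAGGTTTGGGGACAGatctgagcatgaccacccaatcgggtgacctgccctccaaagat
Cacna1a A_52_P210424: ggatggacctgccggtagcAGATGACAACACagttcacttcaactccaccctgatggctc
For Cacna2d2 A_52_P457888, also past 1.2-fold on every array, the first 30 bases are given, without capitals.
Cacna2d2 A_52_P457888: gggggagggtgatacattaattaatggctt

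These probes shared 12 to 15 consecutive bases with their closest match among the probes of other genes.

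No channel probe passed the test across all probes. By limma, the lowest adjusted p among the 46 detected channel probes was 1.00, and the share called over all tested probes was 0.00676%. At an unadjusted p under 0.05, limma gave 3 channel probes, 6.52% of those detected, against 3.07% of all tested probes. They were Cacna1a A_52_P58404 and Cacng6 A_51_P133428, brighter in the Cy3 channel, and Scn8a A_51_P125695, brighter in Cy5. Normexp correction was run with an offset of 50 added to both channels, which by itself shrinks the ratios of dim probes. With it the mean log2 ratios of these 3 probes were smaller in size. They were -0.36, -0.16 and 0.07 with loess and -0.36, -0.19 and 0.03 with median centring. The Scn8a probe then had an unadjusted p of 0.174 and 0.618 by limma.

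Of the 46 detected probes, 11 were brighter in the channel labelled WT on every array, or 23.9%, against a background of 11.0% of all tested probes. In the opposite direction, 2 were brighter in the channel labelled Lrrc10-/- on every array, or 4.35%, against a background of 9.99%. Among the 40 probes well above background in Cy3 and in Cy5 on each array these counts were 10 and 1. Probes on the Cy3 side included those of Scn10a (both probes), Scn3b, Cacna1a, Cacna1s, Cacna2d2, Cacnb3, Cacng6, Cacng8 and Hcn2, and the 2 Cy5-side probes belonged to Scn8a and Scn3b. This split changed when background correction and normalization were replaced together. With normexp correction and loess it was 10 in Cy3 and 7 in Cy5. With normexp and median centring it was 6 in Cy3 and 9 in Cy5, where the median of all tested probes moved to 0.16 on the log2 scale. Taking 1 probe a gene gave 5 in Cy3 and 2 in Cy5. No share over all tested probes is given for the 40 probes, for 1 probe a gene or for the normexp settings.

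With a ratio of at least 1.2-fold on every array, 3 were brighter in Cy3 (6.52%, against a background of 1.95%) and 0 in Cy5 (background 1.71%). The 3 were Cacna1s A_52_P598219, Cacna2d2 A_52_P457888 and Cacng6 A_51_P133428. All 3 were dim, with no processed signal above 156.7 in either channel. None of them passed 1.2-fold on every array after normexp correction, with loess or with median centring. At such signals the offset of 50 in that correction lowers the ratios in advance, so this cannot decide whether the differences hold.

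The median log2 ratio of the detected channel probes was -0.03, against 0.00 over all tested probes, and it was -0.11, -0.08 and -0.11 on replicates 1, 2 and 3. Their ratios varied more from array to array than those of the array as a whole, with a median SD of 0.58 against 0.39 on the log2 scale. Most channel probes were dimmer than the median tested probe in both channels, and this comparison was not matched for signal.

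**Figure D1:**
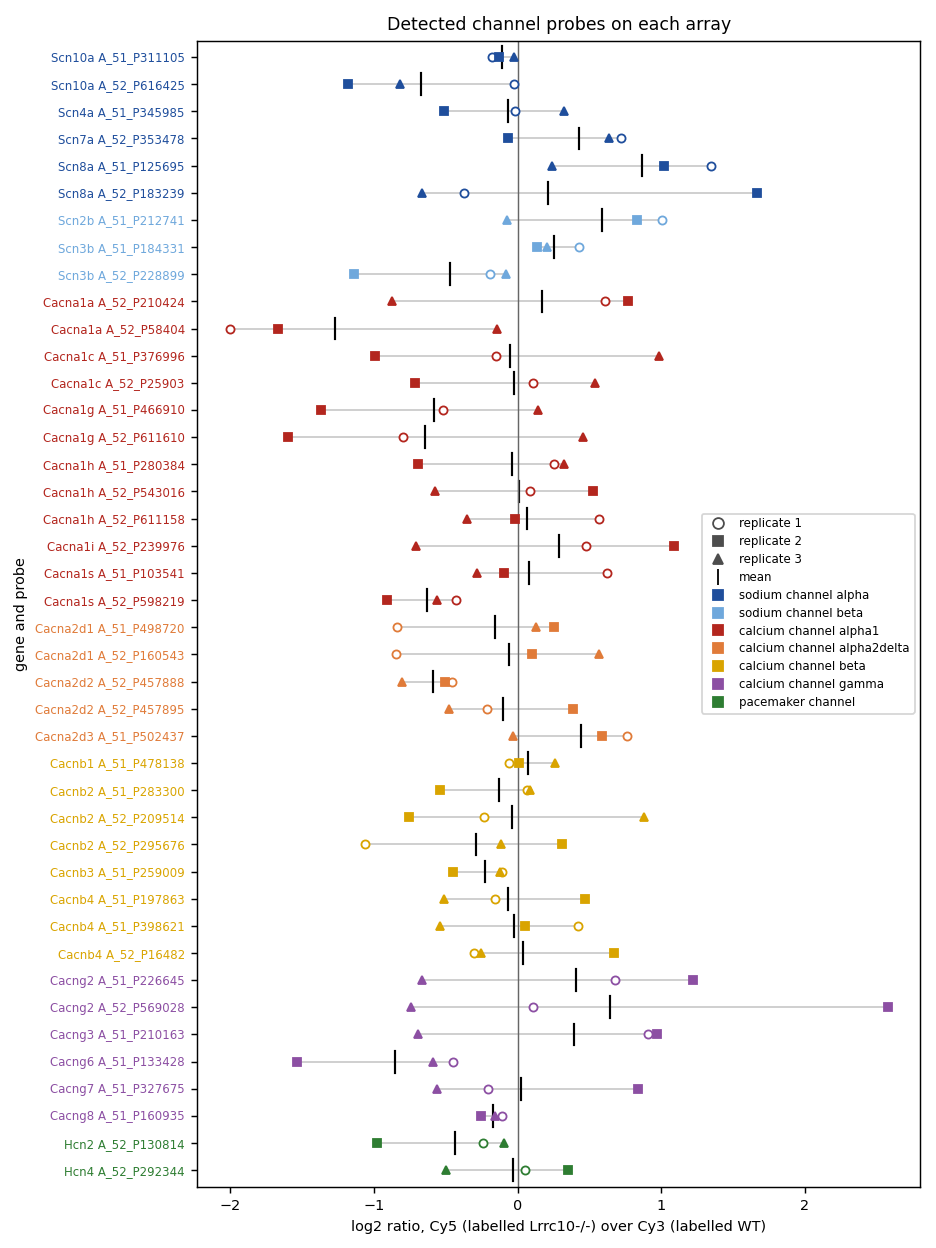
Log2 ratios (positive, brighter in Cy5, labelled Lrrc10-/-; negative, brighter in Cy3, labelled WT) of 42 of the 46 detected channel probes, in rows grouped and coloured by role, with 1 symbol per array and a black bar at the mean of 3 arrays. Most rows have symbols on both sides of 0, while 10 lie wholly on the Cy3 side and 2 wholly on the Cy5 side.

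Among the sodium channel pore genes, 8 of 18 probes were detected, for 5 of 10 genes. Scn10a encodes a sodium channel first described in sensory neurons and since linked to cardiac conduction. Its probe A_51_P311105 was nearly even between the channels, with log2 ratios of -0.18, -0.13 and -0.02. The other, A_52_P616425, gave -0.03, -1.18 and -0.82 (mean -0.67 ± 0.59, SD, n = 3), but was above background in Cy5 on 1 of 3 arrays only. Scn8a, a sodium channel best known from the nodes of myelinated axons, went the other way. Its probe A_51_P125695 had a Cy5 signal of 87.8, 73.0 and 78.6 against a Cy3 signal of 34.5, 36.0 and 66.6. These values gave log2 ratios of 1.35, 1.02 and 0.24 (limma, mean 0.87, 95% interval 0.12 to 1.62, unadjusted p = 0.0288). It was above background in Cy3 on 1 of 3 arrays, so the Cy3 level is poorly known, and the other Scn8a probe, A_52_P183239, gave -0.37, 1.67 and -0.67. Scn4a of skeletal muscle and Scn7a, a sodium-sensing relative of the channels, had mean log2 ratios of -0.07 and 0.43, each with arrays on both sides. Scn1a, Scn2a, Scn3a, Scn9a and Scn11a had no detected probe.

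The sodium channel beta subunits are small proteins that span the membrane once and also act in cell adhesion. Scn2b A_51_P212741 had Cy5 signals of 242.2, 197.7 and 74.9 against Cy3 signals of 120.5, 111.1 and 78.9, hence log2 ratios of 1.01, 0.83 and -0.08. The first and second arrays thus showed Scn2b brighter in Cy5 and the third showed near equality (mean 0.59 ± 0.58, limma unadjusted p = 0.0843). For Scn3b the probes pointed in opposite directions on every array, with 0.43, 0.14 and 0.20 for A_51_P184331 and -0.19, -1.14 and -0.08 for A_52_P228899.

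Among the calcium channel pore genes, 12 of 21 probes were detected, for 6 of 10 genes, and 10 of the 12 had arrays on both sides of 0. Most tested probes of the whole array did so too, as only 9.99% were brighter in Cy5 and 11.0% in Cy3 on every array. Cacna1c encodes the L-type channel of working cardiomyocytes. Its probe A_51_P376996 had Cy3 signals of 2354, 5551 and 741.0 and Cy5 signals of 2125, 2791 and 1469 on replicates 1, 2 and 3. The log2 ratios of -0.15, -0.99 and 0.99 therefore turned from about 2-fold brighter in Cy3 on replicate 2 to about 2-fold brighter in Cy5 on replicate 3, and the mean was -0.05 ± 0.99 (SD, n = 3). The other Cacna1c probe, A_52_P25903, did the same at a smaller size, with 0.11, -0.71 and 0.54. Cacna1d, the L-type pore of sinoatrial and atrial cells, had 4 probes, none of them detected.

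Cacna1g and Cacna1h encode the T-type channels of the heart. Both Cacna1g probes followed Cacna1c on replicates 2 and 3, with log2 ratios of -0.52, -1.37 and 0.15 for A_51_P466910 and -0.79, -1.60 and 0.46 for A_52_P611610. Their means of -0.58 ± 0.76 and -0.64 ± 1.03 (SD, n = 3) were smaller than or close to their spread. Cacna1h had 3 detected probes with mean log2 ratios of -0.04, 0.01 and 0.07. These probes differed from array to array. A_51_P280384 gave 0.25, -0.69 and 0.33, on the same sides as Cacna1g on replicates 2 and 3. A_52_P543016 gave 0.09, 0.53 and -0.58, the reverse on these replicates, and A_52_P611158 gave 0.57, -0.02 and -0.35.

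**Figure D2:**
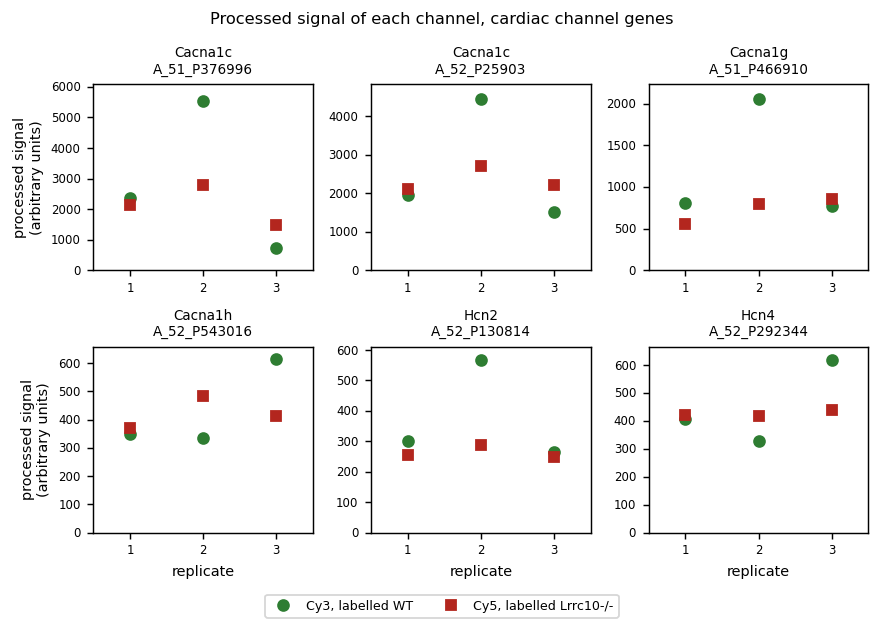
Processed signals in arbitrary units, on linear axes from 0, of 6 probes for 5 channel genes of the heart, by replicate, with Cy3 (labelled WT) as circles and Cy5 (labelled Lrrc10-/-) as squares. For Cacna1c, Cacna1g and Hcn2 the Cy3 signal stood highest on replicate 2, and for Cacna1h A_52_P543016 and Hcn4 on replicate 3. Cacna1h A_51_P280384, not shown, had its highest Cy3 signal on replicate 2. The log2 Cy5 signals had a smaller SD over the arrays than the log2 Cy3 signals for all 6 probes shown.

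Cacna1s, the L-type pore best known as the voltage sensor of skeletal muscle, had probes that differed on replicate 1. A_52_P598219, printed above, had Cy3 signals of 36.6, 65.7 and 31.8 and Cy5 signals of 27.2, 35.02 and 21.5. The Cy3 channel was brighter on each array, with log2 ratios of -0.43, -0.91 and -0.56 (mean -0.63 ± 0.25, SD, limma 95% interval -1.37 to 0.11). The second probe, A_51_P103541, with signals from 3654 to 7263, gave 0.62, -0.09 and -0.28.

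Cacna1a encodes the P/Q-type channel of nerve terminals, and its 2 probes had means further apart than those of any other gene here. A_52_P58404 had Cy3 signals of 176.0, 257.7 and 46.3 against Cy5 signals of 44.01, 81.0 and 42.0. With log2 ratios of -2.00, -1.67 and -0.14, it had the largest mean of any detected channel probe in size (-1.27 ± 0.99, SD, limma 95% interval -2.18 to -0.36, unadjusted p = 0.0121). A_52_P210424 of the same gene gave 0.61, 0.77 and -0.87, on the opposite side on replicates 1 and 2. When replicate 3 was left out, limma called A_52_P58404 (log2 ratio -1.83, adjusted p = 3.42e-04), the only channel probe so called, beside 1.72% of all tested probes. Without replicate 1 or 2 its mean was -0.90 and -1.07, with unadjusted p of 0.0917 and 0.0942 by limma. Cacna1i, a T-type channel of brain, had log2 ratios of 0.48, 1.09 and -0.71.

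The alpha2delta subunits sit on the outer face of calcium channels and bind gabapentin-like drugs. Cacna2d1, the main one in heart, was brighter in Cy3 on replicate 1 alone, with log2 ratios of -0.84, 0.25 and 0.13 for A_51_P498720 and -0.85, 0.10 and 0.57 for A_52_P160543. Cacna2d2 A_52_P457888 had Cy3 signals of 97.1, 142.9 and 75.6 and Cy5 signals of 70.6, 100.5 and 43.3. Brighter in Cy3 on every array, it gave log2 ratios of -0.46, -0.51 and -0.80, a mean of -0.59 ± 0.19 (SD, n = 3; limma unadjusted p = 0.0595). The other detected Cacna2d2 probe, A_52_P457895, had signals of 2400 or more in both channels and log2 ratios of -0.22, 0.39 and -0.48, so this probe was not one-sided. Cacna2d3 had a mean of 0.44 ± 0.42, and the single probe for Cacna2d4 was not detected.

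The calcium channel beta subunits lie inside the cell and bring the pore to the membrane. All 4 genes were detected, by 8 of 9 probes, with mean log2 ratios from -0.29 to 0.07. Cacnb2 is the chief cardiac beta subunit, and its 3 probes did not move as one. A_52_P209514 gave -0.23, -0.76 and 0.88 and A_51_P283300 gave 0.07, -0.54 and 0.09, the order seen for Cacna1c, whereas A_52_P295676 gave -1.06, 0.31 and -0.12. Cacnb3 A_51_P259009 was the beta subunit probe brighter in Cy3 on every array, by -0.11, -0.45 and -0.12. The mean for Cacnb1 was 0.07 ± 0.17, and those for the 3 detected Cacnb4 probes were -0.07, -0.02 and 0.04.

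The gamma subunits belong to a family of membrane proteins of which some join calcium channels and others traffic glutamate receptors. Cacng6, which associates with calcium channels in striated muscle, had Cy3 signals of 71.0, 156.7 and 66.1 and Cy5 signals of 51.9, 54.2 and 44.03. The WT-labelled channel was thus brighter on every array and most of all on replicate 2, with log2 ratios of -0.45, -1.53 and -0.59 (limma, mean -0.86, 95% interval -1.60 to -0.11, unadjusted p = 0.0297). Cacng6, Cacng7 and Cacng8 lie next to each other in the mouse genome. Cacng7 gave -0.20, 0.84 and -0.56 and Cacng8 gave -0.11, -0.25 and -0.16. Cacng6 and Cacng8 were thus brighter in Cy3 on every array, and Cacng7 departed from them on replicate 2.

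Cacng2 and Cacng3, glutamate receptor partners best known from brain, had the opposite profile to Cacng6 on replicates 1 and 2. Cacng2 A_51_P226645 gave 0.68, 1.22 and -0.67 and Cacng3 A_51_P210163 gave 0.91, 0.97 and -0.69. The second detected Cacng2 probe, A_52_P569028, had a log2 ratio of 2.58 on replicate 2, where its Cy3 signal was 7.5, and 0.11 and -0.74 on replicates 1 and 3. It was above background in each channel on 2 of 3 arrays. All 6 gamma probes, both Cacng2 probes among them, were brighter in Cy3 on replicate 3, with a median of -0.63. On replicate 2 their median was 0.90. Of all tested probes, 49.2% were brighter in Cy5 on replicate 3, as were 37.0% of the detected channel probes. On that array the ratios of the detected channel probes rose with log signal (Pearson's r 0.37, against 0.03 over all tested probes). Cacng1, Cacng4 and Cacng5 were not detected.

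The pacemaker channels were represented by Hcn2 and Hcn4, while no probe of Hcn3 was detected. Hcn2, the form found in working ventricle, had Cy3 signals of 301.8, 566.2 and 265.7 and Cy5 signals of 255.2, 287.8 and 248.6. It was brighter in Cy3 on every array, with log2 ratios of -0.24, -0.98 and -0.10 (mean -0.44 ± 0.47, SD, limma 95% interval -1.02 to 0.15). Hcn4, the main form of the sinoatrial node, had log2 ratios of 0.05, 0.35 and -0.50 and a mean of -0.03 ± 0.43. A second Hcn4 probe was not detected.

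Replicates 2 and 3 gave opposed answers for many channel probes. Of the 46, 28 lay on opposite sides of 0 on these arrays, or 60.9%, against 55.7% of all tested probes. Of these, 12 were brighter in Cy3 on replicate 2 and in Cy5 on replicate 3, among them both probes of Cacna1c, both of Cacna1g and the Scn4a probe. The other 16 went the reverse way, among them Cacng2, Cacng3, Cacng7, Cacna1i and Hcn4. Over the 46 probes Pearson's r was -0.40 between replicates 2 and 3, 0.45 between 1 and 2 and -0.13 between 1 and 3, where all tested probes gave -0.18, 0.10 and -0.04. These are descriptions across probes, which share genes, arrays and the WT-labelled RNA where that was common.

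**Figure D3:**
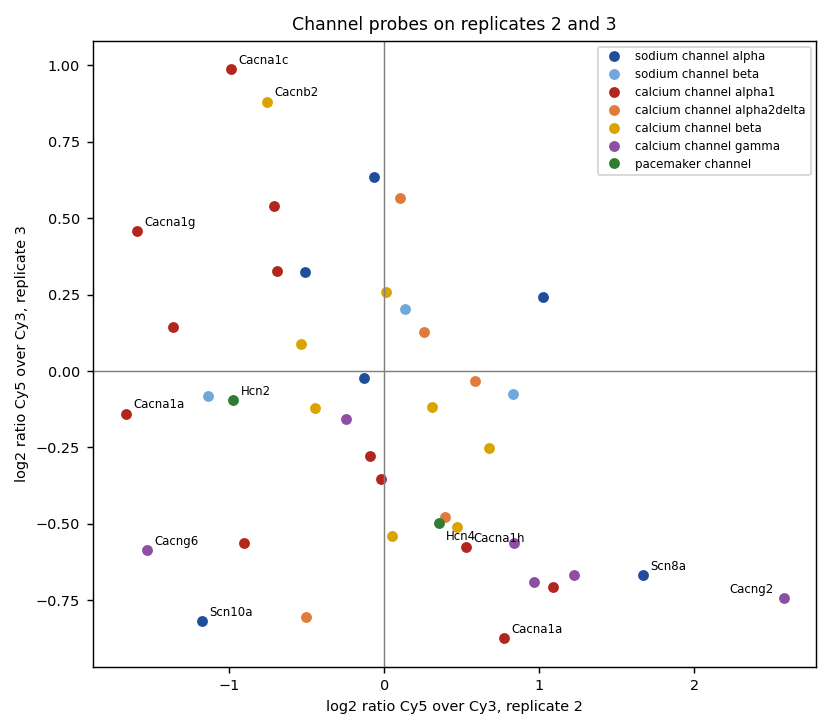
Log2 ratios of Cy5 over Cy3 of 42 of the 46 detected channel probes on replicate 2 (horizontal axis) and replicate 3 (vertical axis), coloured by role, with some genes named. The upper left and lower right hold 9 and 16 probes, the lower left 12 and the upper right 5.

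The disagreement between arrays lay mainly in the Cy3 channel. With each channel of each array centred on its median over the tested probes, the log2 Cy3 signal had a larger SD over the 3 arrays than the log2 Cy5 signal for 36 of the 46 channel probes. The median SD was 0.53 in Cy3 and 0.25 in Cy5. The same held for the array as a whole, where 77.7% of probes varied more in Cy3, with median SDs of 0.38 and 0.22. Mean signals without background subtraction gave 37 of 46 channel probes, and mean signals less the local background gave 36. For Cacna1c A_51_P376996 the SD was 1.19 in Cy3 and 0.20 in Cy5. Among the 10 exceptions, Scn2b had an SD of 0.27 in Cy3 and 0.75 in Cy5. The channel labelled WT, and described as a reference pool, was thus the more variable channel for most of these genes.

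**Figure D4:**
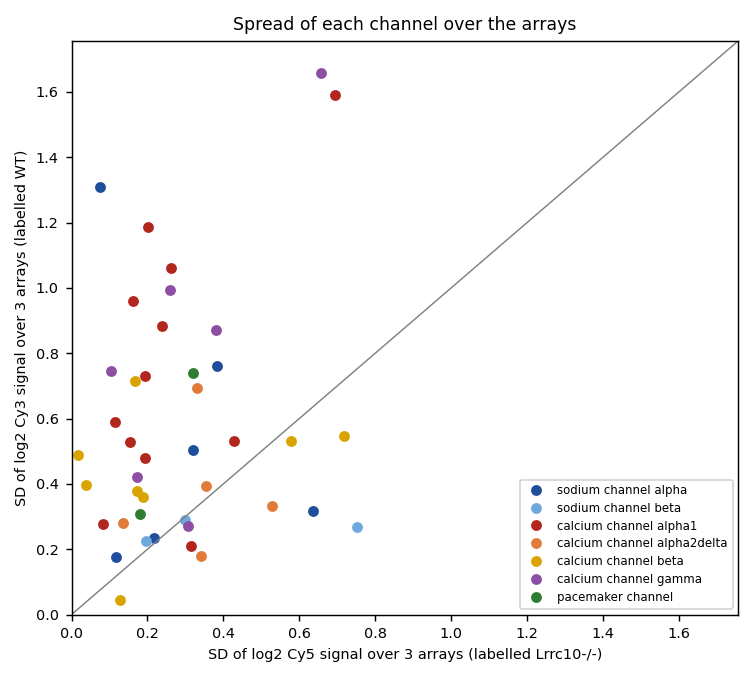
SD over 3 arrays of the centred log2 signal of 42 detected channel probes, with the Cy5 channel (labelled Lrrc10-/-) on the horizontal axis and the Cy3 channel (labelled WT) on the vertical axis, coloured by role; the line marks equality. Of the 42 points, 32 lie above the line.

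Different probes of the same gene gave a check within each array. Of the 15 channel genes with more than 1 detected probe, all probes of 9 had their mean on the same side of 0 (against 56.3% of all genes with several probes). All probes of 5 genes lay on the same side on every array (33.3%, against 23.7%). Cacna1c and Cacna1g were internally alike on replicates 2 and 3, and Cacna1a, Scn3b and Scn8a were not.

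A further list held 30 genes whose products bind, anchor or regulate these channels, or control their transcription. Of these, 26 were detected, by 50 probes, and limma called none. At an unadjusted p under 0.05 it gave 3, or 6.0%, beside 3.07% of all tested probes: Fgf12 A_51_P126337, Stac3 A_51_P177261 and Calm2 A_52_P402305. Fgf12, a fibroblast growth factor homologue that binds the tail of sodium channels, had log2 ratios of -0.65, -0.96 and -0.69. Its probe was dim, with Cy3 signals of 40.9, 61.2 and 35.8 and Cy5 signals of 26.1, 31.4 and 22.2. Stac3, an adaptor of the skeletal muscle L-type channel, gave -0.67, -0.39 and -0.62. Both were brighter in Cy3 by more than 1.2-fold on every array, which made 4.0% of the list's probes beside 1.95% of all tested probes. One of the calmodulin genes, Calm2, which encodes the calcium sensor of the L-type channel, gave 0.30, 0.69 and 0.42 for A_52_P402305. In Cy5, this was the 1 probe of the list past 1.2-fold on every array, beside 1.71% of all tested probes. The other Calm2 probe, A_51_P185971, gave 0.08, 0.57 and 0.35, also brighter in Cy5. Over the list, 6 probes were brighter in Cy5 and 5 in Cy3 on every array (12.0% and 10.0%), close to the background of 9.99% and 11.0%, and the list's medians were 0.03, -0.18 and 0.33 by replicate. Rrad, a small GTPase that restrains L-type channels, gave -0.51, -1.08 and 1.01.

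Marker genes of the tissue and of cells it could hold were set beside these values. All 7 cardiomyocyte genes were detected, though 8 of their 12 probes were saturated, and their median log2 ratios were 0.03, -0.48 and -0.15. Of the 12 probes, 1 was brighter in Cy5 and 4 in Cy3 on every array (8.33% and 33.3%, against 9.99% and 11.0% of all tested probes). By replicate, 7, 2 and 5 of the 12 were brighter in Cy5 on replicates 1, 2 and 3. The 4 unsaturated ones, of Ryr2 and Tnnt2, ran from -1.54 to 0.58 on replicate 2 and from -0.21 to 1.07 on replicate 3. The atrial list differed between arrays the most, with medians of -0.30, 1.45 and -0.54 over 6 probes of 4 genes, and its member Bmp10 was not detected. Its genes did not move together. The Sln probe gave 0.08, 3.69 and -1.15, and Myl7 gave -0.21, 3.41 and -1.27. Myl4 A_51_P413130 gave -0.12, 1.41 and 0.23, and the other Myl4 probe lay on the same sides. Both probes of Nppa, the atrial natriuretic peptide, were brighter in Cy3 on every array, at -0.89, -0.61 and -0.82, and -1.44, -0.82 and -0.25. The paper reported Nppa as raised in adult Lrrc10-/- hearts, by qRT-PCR, by Western blot and in its clustering of the adult arrays. By the channel labels these Nppa probes went the other way, as the Lrrc10 probe did. The summed atrial signal ran from 83674 to 145681 in Cy3 and from 49431 to 99260 in Cy5. The part of atrial tissue in the channel values was not tested.

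Of the 9 neuronal genes, 4 were detected (medians 0.20, -0.02 and -0.09, with a summed signal of 3451 to 5988 in Cy3 and 3254 to 5255 in Cy5), and Nefl, Nefm, Prph, Snap25 and Th were not. Schwann cell genes were all detected, with medians of 0.26, 0.00 and 0.03. For the conduction system 5 of 7 genes were detected, Isl1 and Shox2 of the sinoatrial node not among them, and the medians were 0.08, -0.37 and 0.12. Skeletal muscle genes had medians of -0.01, 0.20 and -0.08 over 7 of 8 genes, with Actn3 not detected. The smooth muscle medians were 0.39, -0.01 and 0.51, those of endothelium 0.19, -0.48 and -0.04, and those of white blood cells 0.08, 0.13 and 0.00, every gene of these 3 lists being detected. Of the 9 smooth muscle probes, 3 were brighter in Cy5 and 0 in Cy3 on every array (33.3% and 0%, against 9.99% and 11.0% of all tested probes). By limma, 3 of them had an unadjusted p under 0.05 (33.3%, against 3.07%). The same share was 33.3% in the atrial list, 16.7% for cardiomyocytes, 12.5% for skeletal muscle and 11.1% for the conduction system. It was 0% for neurons, Schwann cells, endothelium and white blood cells. No probe of these lists passed limma's adjusted threshold, and their part in the channel values was not tested.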

How the data were processed

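RNA of adult hearts was hybridised to 2-colour whole mouse genome arrays, with 3 arrays and no dye swap. The authors deposited scanner files from Agilent Feature Extraction, which hold processed signal intensity in both channels after background subtraction and dye normalization, the log10 ratio of Cy5 over Cy3 and a p-value for each spot from the software's error model, together with a table of the series whose values equalled that log10 ratio. Here the ratios were converted to log2, and spots marked as non-uniform (4 to 21 per array) were left out. Probes with a geometric mean processed signal of at least 20 were fitted with limma 3.58.1 in R 4.3.3, as a ratio against 0 with an intensity trend, and p-values were adjusted by Benjamini-Hochberg over all tested probes. The code was tested on simulated data. Of the 80 channel probes, 64 matched RefSeq (GRCm38.p6 table) by accession, which gave symbols and neighbouring genes. Where the probes lie in the transcripts was not analysed here.

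Named were Lrrc10, genes of the sodium, calcium and pacemaker currents of the heart, probes past 1.2-fold the same way on all arrays, and the 5 largest mean ratios. Other genes were named after their values were seen. The members, partner list and marker lists were chosen with earlier results of these data known. The study's methods name independent biological replicates of pooled littermate hearts and the labels a WT reference pool, so p-values measure the spread between arrays, which leaves out WT spread if one pool was shared. Alternatives covered background correction (normexp with an offset of 50), normalization, the signal minimum, saturation, the test and each array left out. Some genes and sequences are not reported here, though their probes stay in the counts over all members. The embryonic hearts of the study were not analysed here.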

Additional observations from a re-analysis of the deposited data

How the results depend on the processing

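No channel probe was called by limma under any alternative run except without replicate 3, when there was 1. The methods' t-test gave 0 after adjustment and 2 at their unadjusted threshold (Cacna1s A_52_P598219 and Cacna2d2 A_52_P457888). The small number of arrays limits every statement here, and 6 of the 46 detected probes were below the background limit in a channel of at least 1 array.

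Leaving out an array gave 5 to 12 channel probes brighter in Cy5 and 13 to 18 brighter in Cy3 on the remaining arrays, 4 to 14 past 1.2-fold, and 0 to 1 called. The median log2 ratio then ran from -0.17 to -0.048, lying at -0.17 without replicate 3 and -0.12 without replicate 2. Without replicate 1, 5 channel probes were brighter in Cy5 and 13 in Cy3 (10.9% and 28.3%), against 21.9% and 22.2% of all tested probes. No share over all tested probes is given for the other counts of channel probes in this section. Those counts therefore cannot be set against the shares given earlier for 3 arrays. With normexp and loess, 7 were on the Cy5 side of every array and 0 passed 1.2-fold, where the offset of 50 by itself lowers the ratios of dim probes. With normexp and median centring, which shifted the median of all probes tested to 0.16, 9 were brighter in Cy5 and 6 in Cy3, and the channel median was 0.0064, thus below that of all probes. Requiring detection in both channels gave 1 brighter in Cy5. With 1 probe a gene, 5 were brighter in Cy3 and 2 in Cy5, 1 passed 1.2-fold and the median was 0.018. Requiring each array's own p under 0.05 left 0 past 1.2-fold.

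With normexp and loess, the mean log2 ratio changed side for Cacna1a A_52_P210424 (-0.052), Cacna2d1 A_52_P160543 (0.021), Cacnb2 A_52_P209514 (0.074), Cacng2 A_52_P569028 (-0.039), Scn8a A_52_P183239 (-0.052). With normexp and median centring, the mean log2 ratio changed side for Cacna1c A_51_P376996 (0.080), Cacna1c A_52_P25903 (0.31), Cacna1h A_52_P611158 (-0.061), Cacna2d1 A_51_P498720 (0.32), Cacna2d1 A_52_P160543 (0.36), Cacna2d2 A_52_P457895 (0.37), Cacnb2 A_51_P283300 (0.024), Cacnb2 A_52_P209514 (0.11), Cacng2 A_52_P569028 (-0.11), Hcn4 A_52_P292344 (0.099), Scn8a A_52_P183239 (-0.12). Leaving out an array turned the mean of Cacna1a A_52_P210424 (-0.13 to 0.69), Cacna1c A_51_P376996 (-0.57 to 0.42), Cacna1c A_52_P25903 (-0.30 to 0.32), Cacna1h A_51_P280384 (-0.22 to 0.29), Cacna1h A_52_P543016 (-0.24 to 0.31), Cacna1h A_52_P611158 (-0.19 to 0.28), Cacna1s A_51_P103541 (-0.19 to 0.26), Cacna2d1 A_51_P498720 (-0.36 to 0.19), Cacna2d1 A_52_P160543 (-0.37 to 0.33), Cacna2d2 A_52_P457895 (-0.35 to 0.087), Cacnb2 A_51_P283300 (-0.24 to 0.079), Cacnb2 A_52_P209514 (-0.50 to 0.32), Cacnb2 A_52_P295676 (-0.59 to 0.096), Cacng2 A_52_P569028 (-0.32 to 1.34), Hcn4 A_52_P292344 (-0.22 to 0.20), Scn8a A_52_P183239 (-0.52 to 0.65).

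No paired analysis was possible because the arrays form a single group of ratios. The cause of these changes was not tested.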
